A study of Mus musculus with 40 samples.

Results

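The aryl hydrocarbon receptor complex and its feedback genes were followed in mouse liver as a set of 8 genes, chosen by name: Ahr, Arnt, Ptges3, Hsp90ab1, Hsp90aa1, Ahrr, Tiparp and Hif1a. The count tables list 55359 gene identifiers, and each of these 8 genes passed the filter on low counts that left 15373 genes to test. The livers came from 40 male C57BL/6 mice, 30 days old at the start and 58 days old at the end, which all received sesame oil by gavage every 4 days for 28 days. One group of 5 mice received the oil alone (vehicle), and 7 groups of 5 received the dioxin TCDD in it, at low doses of 0.03, 0.1 and 0.3 μg/kg or at 1, 3, 10 and 30 μg/kg, 1 dose per group. Each library came from the RNA of the whole liver of 1 mouse, so fewer cells of a type and less RNA per cell cannot be told apart.

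The aryl hydrocarbon receptor (AhR) is a ligand-activated transcription factor that waits in the cytosol in a complex with the chaperone HSP90 and the co-chaperone p23. After a ligand such as TCDD binds, AhR enters the nucleus, pairs with ARNT and binds dioxin response elements, which share a short core. Among the genes it switches on are repressors of its own activity: AHRR, which competes for ARNT and for the response element, and TIPARP, an enzyme that attaches ADP-ribose to AhR and promotes its loss. HIF-1α, the oxygen-regulated factor, also pairs with ARNT.

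The promoters of the feedback genes are shown because these genes were the members with the largest changes. Each is 300 bases of RefSeq sequence (GRCm38.p6), from 250 bases before the transcription start to 50 after it, read 5′ to 3′ on the strand of the gene. Capitals mark the core of the dioxin response element, searched as GCGTG on the strand shown and as CACGC for the other strand.
Ahrr, chr13:74292282-74292581, minus strand: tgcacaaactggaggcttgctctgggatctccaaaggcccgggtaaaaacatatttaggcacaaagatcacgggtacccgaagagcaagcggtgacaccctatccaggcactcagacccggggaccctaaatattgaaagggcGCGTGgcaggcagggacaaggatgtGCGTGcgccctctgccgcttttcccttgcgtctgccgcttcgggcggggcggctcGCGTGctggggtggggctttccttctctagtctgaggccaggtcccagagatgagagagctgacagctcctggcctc
Tiparp, chr3:65528197-65528496, plus strand: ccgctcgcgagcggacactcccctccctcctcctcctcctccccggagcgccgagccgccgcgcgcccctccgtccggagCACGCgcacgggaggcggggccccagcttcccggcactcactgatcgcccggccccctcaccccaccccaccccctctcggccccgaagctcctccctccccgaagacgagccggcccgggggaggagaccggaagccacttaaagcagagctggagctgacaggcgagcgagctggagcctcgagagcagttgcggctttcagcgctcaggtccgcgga
The Ahrr window held 3 cores, which began 107, 82 and 27 bases before the start. The Tiparp window held 1 core, on the other strand, 170 bases before the start. Of 32851 promoter windows of the same length, 32.4% held at least 1 core and 3.91% held 3 or more. Entries were found for 5 of the 8 members. Arnt had 1 core and Ptges3 had 2. Hif1a had none, but its window held 3 matches to the core bound by HIF itself, searched as ACGTG and CACGT. At least 1 such match was held by 19.6% of windows and 3 or more by 1.73%. Of the 3 matches in the Hif1a window, 2 overlap each other as the forward and reverse form of cacgtg. The AhR and HIF motifs differ by 1 letter and cannot match at the same bases. A match is a description of these letters and not a measured site.

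Levels are given as CPM, the count scaled to the depth and composition of the library, and levels of different genes are compared only as CPM per kilobase of annotated exon. Libraries held 15.5 M to 21.0 M counts in genes, with a median of 17.5 M. Replicate 2 at 3 μg/kg had the lowest share of reads in genes (71.3%, median 78.1%) and the highest share unmapped (11.3%, median 5.14%) of the 40. Genes of the hepatocyte marker list summed to 100765 to 122523 CPM in vehicle and 29811 to 61022 CPM at 30 μg/kg, those of the macrophage list to 143 to 204 CPM and 495 to 1207 CPM, those of the stellate cell and fibroblast list to 183 to 301 CPM and 632 to 1425 CPM, and those of the cholangiocyte list to 37.4 to 48.4 CPM and 67.9 to 333 CPM. At 30 μg/kg, 7 of 7 hepatocyte markers tested were called lower by the test described below, beside 18.9% of all genes. Called higher were 8 of 8 macrophage and 7 of 8 stellate cell and fibroblast markers, beside 23.2% of all genes. So were 5 of 8 endothelial, 5 of 6 lymphocyte and 4 of 5 cholangiocyte markers tested, with 1 cholangiocyte marker lower. With scaling to total counts, 6393 genes were called higher and 1560 lower, so these counts are relative to the scaling. The 4 neutrophil markers tested were also called higher. All 6 markers of the neutrophil list summed to 0.349 to 1.29 CPM in vehicle and 8.42 to 33.1 CPM at 30 μg/kg. Ly6g and Mpo were at 0 in every vehicle library. At such low vehicle levels a neutrophil marker could pass the filter on low counts through the high-dose groups alone. The count of neutrophil markers that rose is therefore a description and no test. At 30 μg/kg, replicate 1 had the highest hepatocyte sum and the lowest macrophage and stellate cell sums of its group. The part of this cell mixture in the results for the members was not tested.

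In vehicle the chaperones were by far the most abundant members. Hsp90ab1, the constitutive cytosolic HSP90, was at 326 ± 15.9 CPM per kilobase (SD, n = 5 here and below), above the level of 99.0% of the genes tested. Ptges3, which encodes p23, was at 50.4 ± 3.06 CPM per kilobase and Hsp90aa1, the heat-inducible HSP90, at 44.2 ± 10.9, a gap smaller than the spread of Hsp90aa1. The transcription factors followed, with Ahr at 6.43 ± 0.49, Arnt at 5.05 ± 0.80 and Hif1a at 4.42 ± 0.74 CPM per kilobase, where the last pair differed by less than its spread. Tiparp stood at 1.14 ± 0.33 and Ahrr at 0.0119 ± 0.0067 CPM per kilobase, the latter above 0.705% of the genes tested. With at most 3 reads in a vehicle library, Ahrr passed the filter on low counts only through groups given TCDD. Its rank in vehicle therefore depends on which genes the filter kept. At 30 μg/kg the less abundant members changed places. Tiparp was at 32.7 ± 6.75 CPM per kilobase and Ahrr 7.11 ± 3.03, whereas Ahr was at 9.47 ± 4.41, Hif1a at 5.62 ± 0.94 and Arnt at 4.45 ± 0.81. The levels of Ahr and Ahrr at this dose differed by less than their spread.

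**Figure D1:**
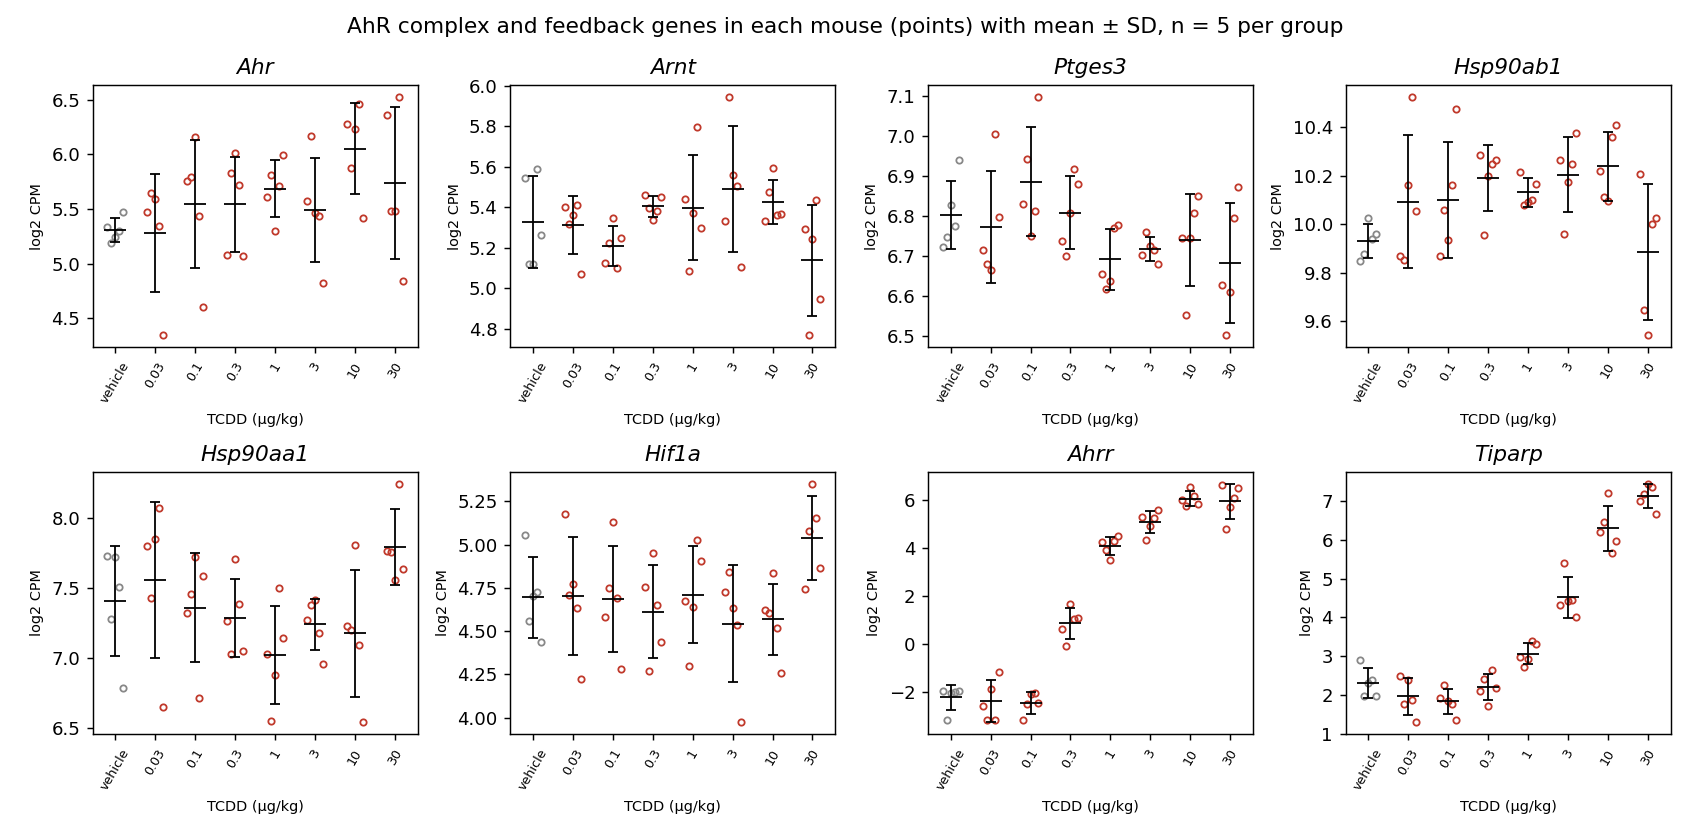
Log2 CPM (prior count 2) of the 8 members against the TCDD dose in μg/kg, with a circle for each mouse, grey for vehicle and red for TCDD, and a bar for the mean ± SD of 5 mice. The vertical scales differ between panels: Ahrr and Tiparp spanned several log2 units, and the other 6 genes spanned far less.

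TCDD dose-dependently induced both feedback genes, with Ahrr first called at 0.3 μg/kg and Tiparp at 3 μg/kg. Each dose was tested against vehicle by the quasi-likelihood F test of edgeR over all 15373 genes, Benjamini-Hochberg adjusted, and a gene was called at an adjusted p under 0.05 with a fold change of at least 1.5. At 0.03 and 0.1 μg/kg edgeR called 0 of 8 members, 0 had an unadjusted p under 0.05 and DESeq2 and limma called 0, where edgeR called 0.0195% and 0.0976% of all genes. One of 8 was called at 0.3 μg/kg and 1 of 8 at 1 μg/kg, against 0.468% and 2.78% of all genes. At 3 μg/kg 2 of 8 were called, against 6.75%, at 10 μg/kg 3 of 8, against 21.8%, and at 30 μg/kg 2 of 8, against 42.1%. All of these calls were increases and belonged to Ahrr, Tiparp and Ahr. The median log2 fold change of the 8 members at 30 μg/kg was 0.36, beside 0.03 over all genes tested. Scaling to total counts alone moved the median over all genes to 0.52 and changed the split of calls at this dose from 3567 higher and 2909 lower to 6393 and 1560. Under that scaling 5 of 8 members were called at 30 μg/kg, with Ahr, Hsp90aa1 and Hif1a added, so directions at this dose are relative to the scaling.

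Ahrr, the AhR repressor, was at or near 0 without TCDD. The 5 vehicle libraries held 3, 0, 2, 2 and 2 of its reads, the 0.03 μg/kg libraries 1, 0, 3, 0 and 5, and the 0.1 μg/kg libraries 0, 1, 2, 2 and 1. These counts lie at about the floor of 3 counts, which was 0.191 CPM in vehicle, so a change at the lowest doses was not detectable at this depth. At 0.3 μg/kg the libraries held 26, 14, 59, 29 and 38 reads, all above every vehicle mouse.

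From there the levels of Ahrr were 1.44, 0.823, 3.09, 1.92 and 2.02 CPM at 0.3 μg/kg and 19.1, 14.9, 11.1, 19.3 and 22.2 CPM at 1 μg/kg. They were 38.6, 20.2, 30.4, 37.9 and 47.5 CPM at 3 μg/kg, 63.1, 53.4, 92.7, 71.7 and 57.0 CPM at 10 μg/kg and 97.6, 27.3, 52.1, 68.5 and 90.3 CPM at 30 μg/kg. The groups at 0.3, 1 and 10 μg/kg each lay wholly above the group before, whereas those at 3 and 30 μg/kg overlapped it. Against the floor in vehicle, Ahrr was at least 9.75-fold higher at 0.3 μg/kg, 90.8-fold at 1, 183-fold at 3, 354-fold at 10 and 352-fold at 30 μg/kg. The edgeR adjusted p against vehicle was 4.27e-05 at 0.3 μg/kg and 1.24e-18 at 30 μg/kg.

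Tested against the next lower dose in the same edgeR model, with adjustment over all genes, Ahrr rose at 0.3 μg/kg (log2 fold change 4.48 ± 0.63, SE; adjusted p = 9.04e-05), at 1 μg/kg (3.21 ± 0.31; adjusted p = 1.42e-08) and at 10 μg/kg (0.95 ± 0.26; adjusted p = 0.0146). Its change of 1.01 ± 0.26 from 1 to 3 μg/kg had an adjusted p of 0.254, in a comparison in which 0.0585% of all genes were called. From 10 to 30 μg/kg its log2 fold change was -0.01 ± 0.26, with a 95% interval of -0.51 to 0.49. The call at 10 μg/kg was lost without 3 μg/kg replicate 2 (adjusted p = 0.0522) or without 10 μg/kg replicate 3 (adjusted p = 0.0678).

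Tiparp, also known as PARP7, was present in every library and rose at the 3 highest doses. Vehicle mice had 7.31, 3.79, 4.85, 5.10 and 3.79 CPM, and the means at 0.03, 0.1 and 0.3 μg/kg were 3.97 ± 1.32, 3.52 ± 0.81 and 4.61 ± 1.09 CPM, none of them above the vehicle mean of 4.97 ± 1.44. At 1 μg/kg the mice had 7.76, 6.45, 7.55, 10.3 and 9.86 CPM, of which 4 of 5 exceeded every vehicle mouse. The log2 fold change there was 0.75 ± 0.27 (edgeR adjusted p = 0.122), and it was called when vehicle and that dose were fitted alone (adjusted p = 0.0327).

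At 3 μg/kg Tiparp was at 19.9, 41.9, 21.3, 21.8 and 15.9 CPM, at 10 μg/kg at 73.2, 87.5, 148, 51.0 and 62.2 CPM, and at 30 μg/kg at 128, 145, 175, 164 and 101 CPM. The groups at 3 and 10 μg/kg lay above all lower groups, and the group at 30 μg/kg overlapped that at 10 μg/kg through 1 mouse of the latter. The log2 fold changes against vehicle were 2.27 ± 0.26, 4.08 ± 0.28 and 4.83 ± 0.28, with edgeR adjusted p of 6.68e-08, 1.88e-14 and 8.84e-17. Each step from 1 μg/kg upwards was called against the dose before, by 2.87-fold at 3 μg/kg (adjusted p = 0.00142), by 1.81 on the log2 scale at 10 μg/kg (adjusted p = 3.07e-06) and 1.69-fold at 30 μg/kg (adjusted p = 0.0123). Without replicate 2 at 3 μg/kg, the mouse at 41.9 CPM, the step to 3 μg/kg was 1.23 on the log2 scale (adjusted p = 0.0183) in place of 1.52. The call at 30 μg/kg was lost without 10 μg/kg replicate 4 (log2 fold change 0.62, adjusted p = 0.0528).

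Thus from 10 to 30 μg/kg Tiparp rose and Ahrr did not pass the test. At 0.3 μg/kg, Ahrr stood at 2.75% of its highest group mean, beside 0.166% in vehicle, and Tiparp at 3.23%, beside 3.48% in vehicle. At 3 μg/kg they stood at 51.7% and 16.9%. The processed pseudogene 4931440P22Rik, which lies antisense to Tiparp exons, rose from a mean of 4.8 counts in vehicle to 445 at 30 μg/kg. Because the libraries keep no strand, reads in the bases that this pair shares cannot be told apart. Reads in several genes were left out, so such reads are in neither count.

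**Figure D2:**
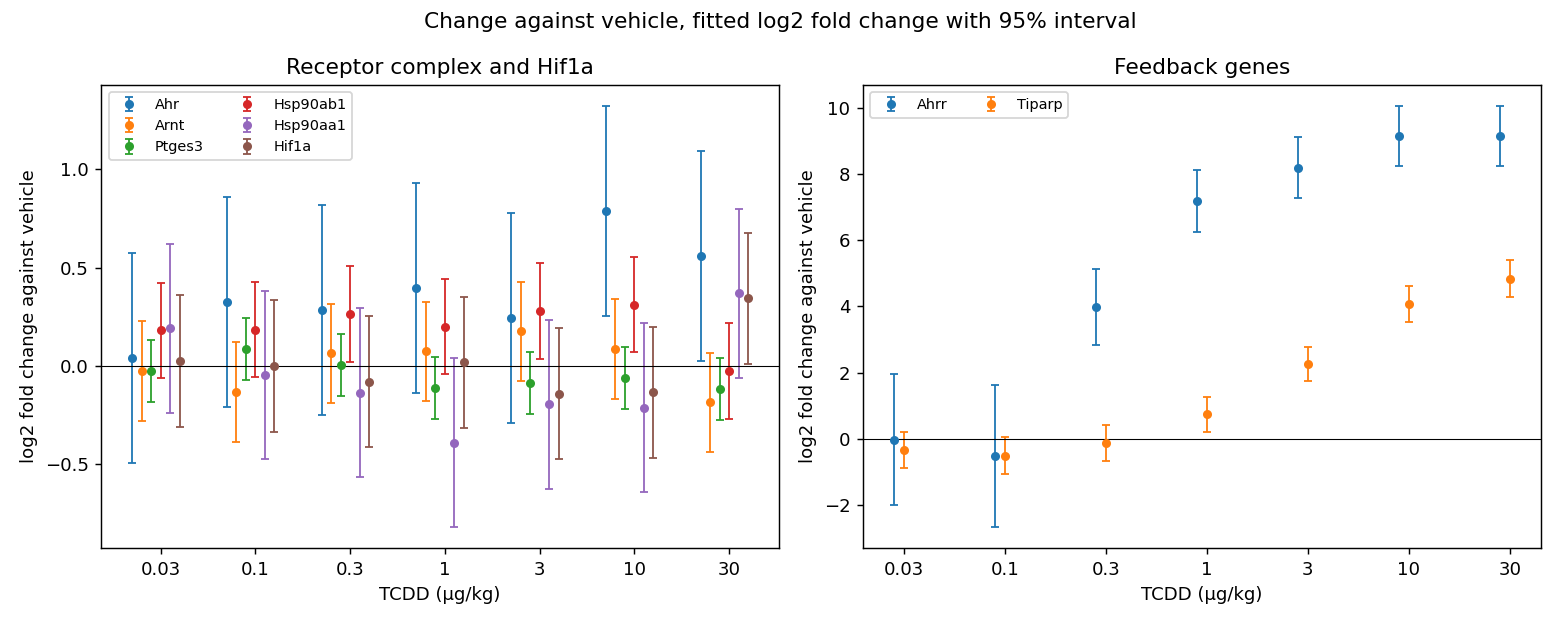
Fitted log2 fold change against vehicle with its 95% interval at each TCDD dose in μg/kg, at left for the receptor complex genes and Hif1a and at right for Ahrr and Tiparp, on different vertical scales. Only the Ahr interval at 10 μg/kg belongs to a called gene at left, and the size of the Ahrr values is not determined because vehicle lay at the floor.

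Ahr itself changed less. Vehicle mice had 40.3, 36.5, 37.7, 39.2 and 44.4 CPM, a spread of 7.65% of the mean. At 10 μg/kg the mice had 77.6, 58.6, 75.0, 87.9 and 42.6 CPM, of which 4 of 5 exceeded every vehicle mouse, and at 30 μg/kg they had 81.9, 44.6, 44.6, 92.1 and 28.6 CPM, of which 4 of 5 exceeded every vehicle mouse and 1 lay below all of them. The spread at 30 μg/kg was 46.6% of the mean. Ahr rose at 10 μg/kg (log2 fold change 0.79 ± 0.27, edgeR adjusted p = 0.0242), whereas 0.56 ± 0.27 at 30 μg/kg was not called (adjusted p = 0.0786). The former call did not hold when replicate 1 (adjusted p = 0.0509) or replicate 4 (adjusted p = 0.0727) of its group was left out, nor with limma on the deposited table (adjusted p = 0.0516), and at 30 μg/kg a call was gained without replicate 5 (log2 fold change 0.71, adjusted p = 0.0230) and with scaling to total counts (1.05, adjusted p = 0.00219). The lincRNA Gm48236, which lies antisense to Ahr exons, had at most 16 counts in a library. Hif1a exons overlap those of Gm15283, on the other strand, and of Gm49321, on the same strand. These had at most 17 and 0 counts in a library. Reads in shared bases are in neither count, so such counts do not show how many reads Ahr or Hif1a lost.

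Part of the spread of Ahr within a dose went with the numbering of the sample titles. Titles numbered 1 to 27 formed a first run of 19 libraries and titles from 28 to 54 a second of 21, and each dose took 3 consecutive numbers in each run, some of which are not analysed here. What the numbers stand for is not given. The 6 libraries at the third place of the second run were the lowest of their dose group for Ahr in 6 of 6 groups, at 20.2 to 42.6 CPM with a median of 28.4, and no vehicle library stood at that place. The medians at the other 5 places were between 44.6 and 54.1 CPM. For Hif1a the libraries at that place were lowest in 4 of 6 groups, for Tiparp in 4 of 6 and for Hsp90aa1 in 3 of 6. For Arnt they were lowest in 2 of 6 and for Ahrr in none. Ptges3 was lowest there in 1 group and highest in 3, and Hsp90ab1 was lowest in 0 and highest in 3. Other places were uneven too, as Hif1a was highest in 5 of 7 groups at the first place of the second run.

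With run and place as a covariate of 6 levels, an alternative added after the data were seen, the log2 fold change of Ahr was 0.97 ± 0.18 at 10 μg/kg and 0.71 ± 0.18 at 30 μg/kg. The third place was noticed in the Ahr values themselves and holds no vehicle library, so these values are a description and no test of Ahr. Within the first run alone Ahr was at 0.82 ± 0.26 (adjusted p = 0.0442) and 0.71 ± 0.26 (adjusted p = 0.0412), and within the second at 0.71 ± 0.47 (adjusted p = 0.344) and 0.37 ± 0.46 (adjusted p = 0.562). At 3 μg/kg and below Ahr was not called within either run. Within the first and the second run, the log2 fold change of Tiparp at 30 μg/kg was 4.66 ± 0.31 and 5.01 ± 0.47 and that of Ahrr at 1 μg/kg 7.18 ± 0.68 and 7.13 ± 0.52, and all 4 were called. Ahrr at 0.3 μg/kg was called in the second run (4.00 ± 0.59, adjusted p = 0.00223) and not in the first (3.48 ± 0.99, adjusted p = 0.470), which held 2 mice at that dose.

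**Figure D3:**
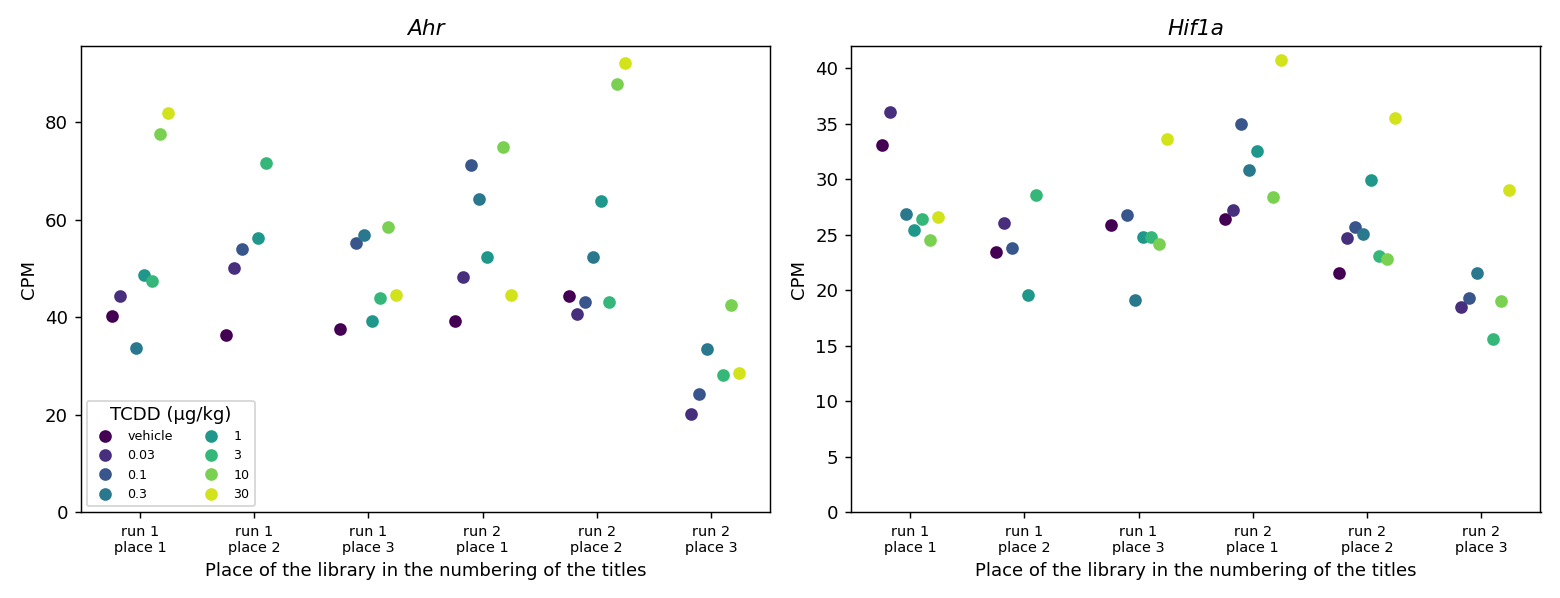
CPM of Ahr (left) and Hif1a (right) in each library against its place in the numbering of the titles, coloured by TCDD dose. At the third place of run 2, which holds no vehicle library, Ahr was at 20.2 to 42.6 CPM and was the lowest of its dose group each time.

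Arnt, the shared partner of AhR, AHRR and HIF-1α, was not called at any dose. It was at 46.5, 34.7, 34.7, 48.0 and 38.3 CPM in vehicle and at 39.1, 27.1, 37.8, 43.2 and 30.8 CPM at 30 μg/kg, groups that overlapped. In the comparison of 30 μg/kg with vehicle the log2 fold change was -0.18, with a 95% interval of -0.44 to 0.07, and its means over the 8 groups ran from 35.6 to 45.7 CPM. That interval did not reach a 1.5-fold change. With scaling to total counts the sign turned (0.30, adjusted p = 0.0751).

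The chaperone members were likewise not called against vehicle at any dose. Ptges3 means lay between 103 and 119 CPM in all groups, and its log2 fold change at 30 μg/kg was -0.12 (95% interval -0.27 to 0.04), or 0.37 with scaling to total counts, under the fold threshold in both. Hsp90ab1 was at 922, 940, 1043, 982 and 996 CPM in vehicle, at 1190, 1105, 1093, 1311 and 1360 CPM at 10 μg/kg, where each mouse exceeded all vehicle mice, and at 1182, 801, 746, 1025 and 1041 CPM at 30 μg/kg, where the mice lay on both sides of vehicle. Its log2 fold change at 10 μg/kg was 0.31 ± 0.12 (adjusted p = 0.0503 by edgeR), under the fold threshold. From 10 to 30 μg/kg it was -0.34 ± 0.12 (adjusted p = 0.0337), again under the fold threshold, and -0.06 (adjusted p = 0.626) with scaling to total counts. Against vehicle its log2 fold change at 30 μg/kg was -0.03, and 0.45 with that scaling.

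Hsp90aa1 varied more between mice, with 211, 155, 211, 182 and 110 CPM in vehicle, 150, 147, 224, 137 and 93.1 CPM at 10 μg/kg and 217, 217, 188, 303 and 199 CPM at 30 μg/kg. At 30 μg/kg 5 of 5 mice exceeded the mean of vehicle and 3 of 5 exceeded every vehicle mouse. Its log2 fold change was 0.37 ± 0.22 against vehicle (adjusted p = 0.151 by edgeR) and 0.58 ± 0.22 against 10 μg/kg (adjusted p = 0.0391), a 1.497-fold difference. It lay just under the fold threshold and was called with relative log expression scaling (0.59, adjusted p = 0.0321), with total counts (0.83, adjusted p = 0.00803) and with run and place as a covariate (0.64, adjusted p = 0.00982). The stress-inducible and the constitutive HSP90 thus had opposite signs between these doses.

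Hif1a was at 33.1, 23.4, 25.9, 26.4 and 21.5 CPM in vehicle, 24.5, 24.2, 28.4, 22.8 and 19.0 CPM at 10 μg/kg and 26.6, 33.7, 40.8, 35.5 and 29.0 CPM at 30 μg/kg. Each mouse of the 30 μg/kg group exceeded the vehicle mean, and 3 of 5 exceeded every vehicle mouse. The log2 fold change was 0.34 ± 0.17 against vehicle (adjusted p = 0.0829 by edgeR) and 0.48 ± 0.17 against 10 μg/kg (adjusted p = 0.0282), which is 1.39-fold and not a call. With scaling to total counts both were called (0.84 and 0.75, adjusted p = 0.000576 and 0.00366). Within the 30 μg/kg group Hif1a was lowest in replicate 1, which had the lowest macrophage sum (495 CPM) and the highest hepatocyte sum (61022 CPM). It was next lowest in replicate 5, which had the highest macrophage sum (1207 CPM) and the next highest hepatocyte sum (48430 CPM). Hif1a was highest in replicate 3, which had the lowest hepatocyte sum (29811 CPM). A link of Hif1a to the cell mixture was not tested.

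Over the ordered doses, 3 of 8 members had a trend at an adjusted p under 0.05 in edgeR, against 57.7% of all genes (31.5% upwards). The slope per dose step was 1.51 ± 0.09 log2 units for Ahrr, 0.79 ± 0.06 for Tiparp and 0.09 ± 0.03 for Ahr, with adjusted p of 4.95e-17, 4.51e-15 and 0.00739. Ptges3 had a slope of -0.02 ± 0.01 (adjusted p = 0.0595), and it lay near the threshold. It passed with numbering run (adjusted p = 0.0301) or run and place (adjusted p = 0.0136) as a covariate and in 10 of 40 fits that left out 1 mouse, and turned to 0.04 with scaling to total counts. Against the next lower dose, 1 of 8 members was called at 0.3 μg/kg, 1 at 1, 1 at 3, 2 at 10 and 1 at 30 μg/kg, beside 0.0455%, 0.241%, 0.0585%, 6.77% and 21.1% of all genes.

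A ratio of members within a library takes out the scaling of libraries. They were compared with vehicle by an exact permutation test, 2-sided, 5 mice against 5, for which the smallest p is 0.00794, adjusted over the 7 doses of a ratio. The log2 ratio of Ahrr to Ahr was -7.53 ± 0.46 in vehicle, -4.68 ± 0.75 at 0.3 μg/kg and -1.60 ± 0.24 at 1 μg/kg, and stood at -0.42 ± 0.92, -0.0010 ± 0.34 and 0.20 ± 0.91 at 3, 10 and 30 μg/kg. At these 5 doses each mouse exceeded all vehicle mice (exact p = 0.00794, adjusted 0.0111). Single libraries ran from -1.82 to 0.75 at 3 μg/kg, from -0.30 to 0.42 at 10 μg/kg and from -0.71 to 1.65 at 30 μg/kg, on both sides of equal reads. The vehicle value is set by the prior count of 2, since Ahrr had at most 3 reads there, and the rise at 30 μg/kg was 7.73 with that prior and 8.59 with a prior count of 0.5, so its size is not determined.

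The log2 ratio of Ahr to Arnt was -0.02 ± 0.22 in vehicle, 0.63 ± 0.42 at 10 μg/kg (exact p = 0.0317, adjusted 0.194) and 0.60 ± 0.52 at 30 μg/kg (exact p = 0.0556, adjusted 0.194), with 4 of 5 mice above every vehicle mouse at each. The log2 ratio of Hif1a to Ahr was -0.61 ± 0.27 in vehicle and -1.49 ± 0.32 at 10 μg/kg, where all 5 mice lay below all vehicle mice (exact p = 0.00794, adjusted 0.0556). At 30 μg/kg it was -0.70 ± 0.75, with 2 mice below and 2 above all vehicle mice (exact p = 0.810, adjusted 0.865). The log2 ratio of Hsp90aa1 to Hsp90ab1 was -2.53 ± 0.40 in vehicle, -3.11 ± 0.34 at 1 μg/kg (exact p = 0.0317, adjusted 0.20) and -2.09 ± 0.31 at 30 μg/kg (exact p = 0.0873, adjusted 0.20). Apart from Ahrr to Ahr, no ratio passed at an adjusted p under 0.05.

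**Figure D4:**
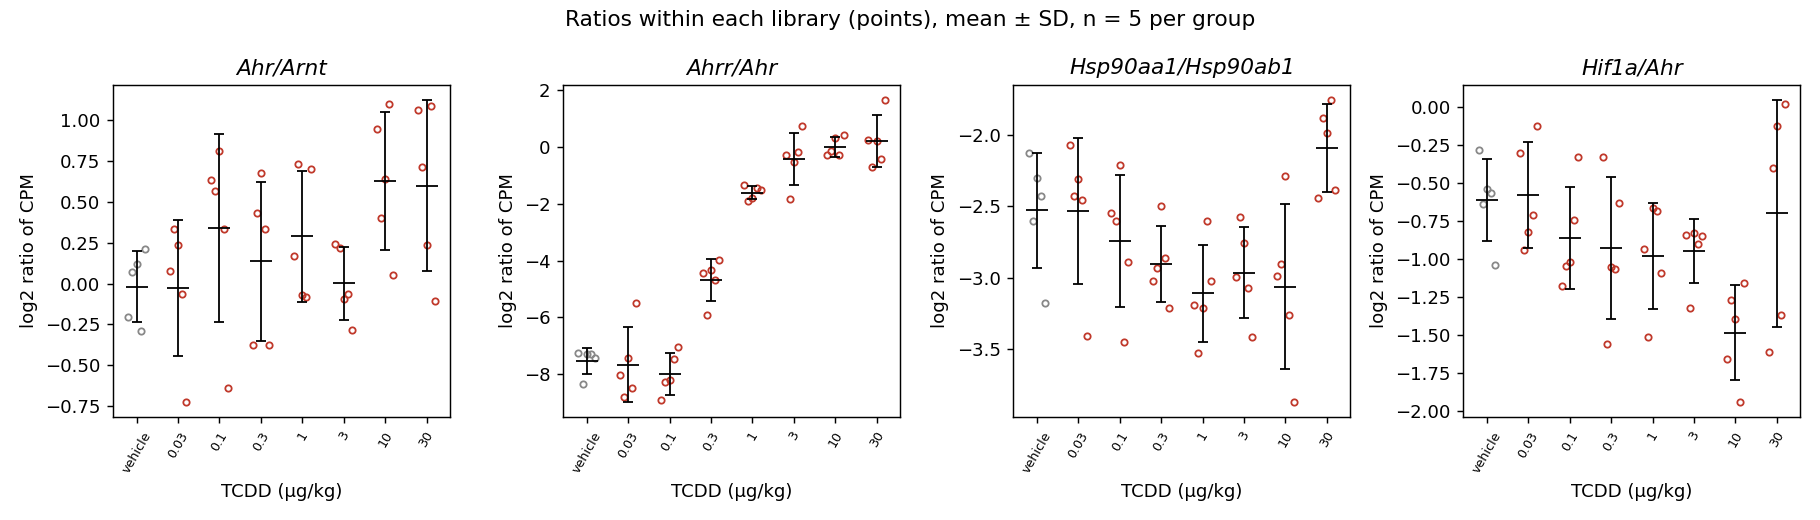
Log2 ratio of the CPM of a pair of members in each library (circles) against the TCDD dose in μg/kg, with a bar for the mean ± SD of 5 mice. The ratio of Ahrr to Ahr rose from a vehicle level set by the prior count of 2 to a mean of -0.0010 at 10 μg/kg, and the other ratios overlapped vehicle at 30 μg/kg.

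Genes that work with the members were read from 7 lists. At 30 μg/kg 23.2% of all genes tested were called higher and 18.9% lower. With scaling to total counts 6393 of the 15373 genes were called higher and 1560 lower. The counts of each list are to be read beside these shares. Of 8 other AhR targets tested, 2 rose at 0.03 μg/kg, 4 at 0.3 μg/kg and 7 at 30 μg/kg, the last count the same with scaling to total counts. Over all genes, 0.0195%, 0.468% and 42.1% were called at these doses in either direction. Cyp1a1 and Cyp1a2, monooxygenases of the classic AhR response, were called from 0.03 μg/kg, and Cyp1b1, of the same family, was called from 0.3 μg/kg, as Ahrr was, with a log2 fold change of 12.37 ± 0.38 at 30 μg/kg. Nqo1, a quinone reductase, was called from 0.3 μg/kg, and Nfe2l2, the antioxidant response factor, and Gsta1, a glutathione transferase, from 1 μg/kg. The exception at 30 μg/kg was Ugt1a6b (-0.53, adjusted p = 0.00438 by edgeR, under the fold threshold). It shares exons with Ugt1a6a, which was called only at 30 μg/kg (0.84, adjusted p = 0.0211), and both are uncertain for that reason.

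The list of HSP90 cofactors and HSP70 chaperones held 21 genes, among them Src, which is a client of HSP90 and neither of these. At 30 μg/kg 1 gene of the list rose, which was Src, 3 fell and 17 were not called. The list's median log2 fold change was -0.16, whereas scaling to total counts gave 6 higher and 1 lower with a median of 0.33. Src, a kinase client of HSP90, rose from 2.90 ± 0.54 to 15.9 ± 2.45 CPM. Fkbp4, an immunophilin partner of HSP90, fell by 1.24 on the log2 scale, from 241 ± 25.3 to 102 ± 48.5 CPM, and Dnaja1, a J-domain co-chaperone, fell by 0.64, a call not made with scaling to total counts. Hsp90b1, the HSP90 of the endoplasmic reticulum, was lower at 3 μg/kg (-0.63, adjusted p = 0.00788 by edgeR), at 10 μg/kg (-1.14, adjusted p = 7.48e-07) and at 30 μg/kg (-0.77, adjusted p = 0.000103). With scaling to total counts its change at 30 μg/kg was no longer called (-0.27, adjusted p = 0.211).

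Of 12 other bHLH-PAS factors, the family of Ahr, Arnt and Hif1a, 6 were tested, of which 3 fell and 0 rose at 30 μg/kg (median -0.60), with 0 higher at an unadjusted p under 0.05. Scaling to total counts gave 1 higher and 2 lower, and DESeq2, run without the filter, called 1 higher, Arnt2. Npas2 and Arntl, both of the circadian clock, fell by 2.07 and 1.23 on the log2 scale, and Epas1, which encodes HIF-2α, fell by 0.87, a call not made with scaling to total counts. Of 19 AhR coregulators and turnover factors, 3 rose and 0 fell at 30 μg/kg in edgeR and in DESeq2, with 7 lower at an unadjusted p under 0.05 and a median of -0.19, whereas scaling to total counts gave 6 higher and 0 lower with a median of 0.30. The 3 were Klf6, a zinc finger factor (2.40 ± 0.28), Nrip1, a corepressor of nuclear receptors (1.52 ± 0.24), and Relb, an NF-κB subunit (1.45 ± 0.36).

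Of 19 other PARP family members and ADP-ribose erasers, 1 rose and 5 fell at 30 μg/kg (median -0.14), whereas scaling to total counts gave 8 higher and 3 lower (median 0.34). Macrod1, an ADP-ribose eraser, fell by 2.12, from 67.6 ± 10.7 to 15.6 ± 6.84 CPM, and Parp16, Macrod2, Parp3 and Parp1 were also called lower, the last pair not with scaling to total counts. Parp8 rose by 1.58 ± 0.38 on the log2 scale (adjusted p = 0.000498 by edgeR).

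Of 5 genes of HIF oxygen sensing, Egln3, a prolyl hydroxylase that marks HIF-α for destruction, rose (1.196 ± 0.28) and Hif1an, which hydroxylates HIF-α on asparagine, fell by 0.65 at 30 μg/kg. The Egln3 call was lost in the first run alone (0.41, adjusted p = 0.433), and that of Hif1an with scaling to total counts (-0.16, adjusted p = 0.144). Of 16 HIF targets, 5 rose and 2 fell (median 0.35), and scaling to total counts gave 9 higher and 2 lower (median 0.85). Hilpda, an inhibitor of lipolysis on lipid droplets, rose from 3 μg/kg (1.39, adjusted p = 0.00800 by edgeR) to 4.01 ± 0.37 at 30 μg/kg, and Adm, which encodes adrenomedullin, rose by 2.38 ± 0.42. Hk2, Ddit4 and Ankrd37 also rose, whereas Vegfa and Pdk1 fell. Ankrd37 had a mean of 5.4 counts and was not called by DESeq2, which left 4 higher.

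**Figure D5:**
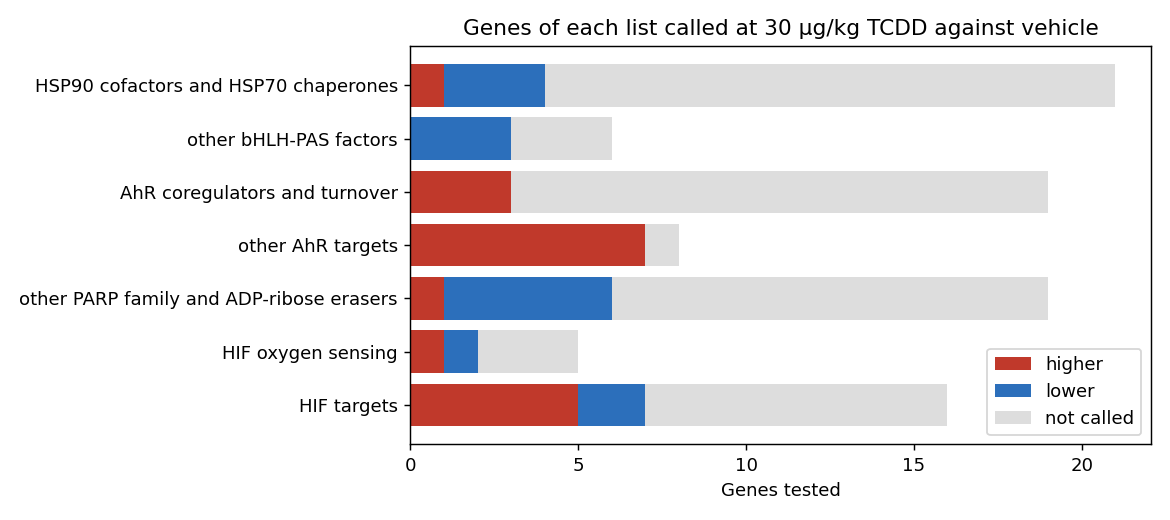
Number of genes tested in each of 7 lists of genes related to the members, divided into those called higher (red), called lower (blue) and not called (grey) at 30 μg/kg TCDD against vehicle. At this dose 23.2% of all genes tested were called higher and 18.9% lower.

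The genes whose levels followed a member most closely were sought by Pearson's r of log2 CPM over the 40 libraries among genes with a mean of at least 100 counts. The libraries share the doses, so genes that respond to TCDD correlate for that alone, and the values are a description. For Ahrr they were Cyp1b1 (r = 0.97), Cyfip2 (0.96) and Fabp12 (0.96), and for Tiparp Gm26911 (0.97), Msrb3 (0.97) and Col9a2 (0.96). For Ahr they included Secisbp2l (0.80) and Mycbp2 (0.77), for Arnt Zfp36l1 (0.72), 1190002N15Rik (0.69) and Ugcg (0.67), and for Hif1a Herc1 (0.87), Wdr26 (0.87) and Cdc27 (0.86).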

How the data were processed

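Liver RNA of 40 mice, 5 per group, was measured by RNA-Seq. The authors deposited raw counts per gene as written by STAR 2.7.3a, after FastQC 0.11.7 and Trimmomatic 0.39 in the submitters' processing notes, which name both GRCm39 and mm10 as builds. The build of the counts was therefore not settled, and the only coordinates given are those of the RefSeq promoters. The unstranded column was used, since 50.0% to 50.3% of strand-specific counts fell on the first strand. Reads in no gene (3.34% to 7.36%), in several genes (4.84% to 5.90%), at several places (5.24% to 7.43%) or unmapped (2.47% to 11.3%) were left out. The authors also deposited a table of log2 values for 23120 genes, which equals the blind variance-stabilizing transformation of DESeq2 within 5.03e-10, and it was used as it is in 1 alternative. Identifiers were named by GENCODE M21 (52083 of 55359), which also gave exon lengths.

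The counts were fitted by edgeR 4.0.16 (R 4.3.3), with filterByExpr (minimum count 10, minimum total 15), TMM scaling, a quasi-likelihood fit with 1 mean per dose to all 40 libraries without covariates, and Benjamini-Hochberg adjustment within each comparison. The study called genes by an empirical Bayes posterior probability that was not used here. The trend was linear on steps from 0 to 7. SD is between mice, SE and the 95% interval come from the fit, and a prior count of 2 was added for log2 CPM. The floor of 3 counts covers counting error only. The edgeR function was tested on simulated data. Alternatives were DESeq2 1.42.0, limma 3.58.1 on the deposited table, other scalings, filters, covariates and subsets, and leaving out each library. Replicate numbers follow accession order and pair no mice. The members and lists were chosen with earlier results of these data known. Named were the 8 members, from each list the genes called at 3 μg/kg or a lower dose and the 2 with the largest change at 30 μg/kg among those called there, and for Ahr, Arnt, Ahrr, Tiparp and Hif1a the 3 most alike genes, of which 1 is not reported here. Dnaja1, Epas1, Arnt2, Relb, Parp16, Macrod2, Parp3, Parp1, Ugt1a6a, Ugt1a6b, Hk2, Ddit4, Ankrd37, Vegfa, Pdk1 and the genes overlapping Tiparp, Ahr and Hif1a were named after their values were seen.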

Additional observations from a re-analysis of the deposited data

Results flagged for a closer look

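Of 96 sets of 5 values examined for a mouse far from the other 4, 6 had one by Dixon's criterion, a share near the 1 in 20 that chance gives. Hsp90aa1 at 30 μg/kg was at 303 CPM in replicate 4 and at 188 to 217 CPM in the others. Tiparp at 3 μg/kg was at 41.9 CPM in replicate 2 and at 15.9 to 21.8 CPM in the others, and the log2 ratio of Hif1a to Ahr of the same mouse was -1.32 beside -0.90 to -0.83; this library had the lowest share of reads in genes (71.3%) of the 40. Ahrr was at 0 CPM in vehicle replicate 2 and at 0.129 to 0.149 CPM in the others, all at or under 3 counts, which with the prior count of 2 also set the log2 ratio of Ahrr to Ahr of that mouse at -8.35 beside -7.44 to -7.27. The log2 ratio of Hsp90aa1 to Hsp90ab1 in replicate 5 at 0.03 μg/kg was -3.41, beside -2.45 to -2.07.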

How the results depend on the processing

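Members called against vehicle were the same in number or within 1.5 times at every dose under most alternatives. At 0.3 μg/kg the count fell from 1 to 0 in run 1 alone. At 1 μg/kg it rose from 1 to 2 with vehicle and that dose fitted alone (Tiparp) and in run 1 alone (Hsp90aa1, log2 fold change -0.76, adjusted p = 0.0172 by edgeR). At 30 μg/kg it rose from 2 to 5 with scaling to total counts. Against the next lower dose, run and place as a covariate gave 2 called at 3 μg/kg in place of 1, and at 30 μg/kg, in place of 1, relative log expression scaling gave 2, total counts 3 and run and place 2. Leaving out 1 mouse gave 1 to 2 at the step to 10 μg/kg (1 without 3 μg/kg replicate 2 or 10 μg/kg replicate 3) and 0 to 2 at the step to 30 μg/kg (0 without 10 μg/kg replicate 4; 2 without 10 μg/kg replicate 3 or 30 μg/kg replicates 3 or 5). The count with a trend rose from 3 to 7 with total counts. The cause was not tested.

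Signs turned for small differences. With total counts, Arnt (0.30), Ptges3 (0.37) and Hsp90ab1 (0.45) became higher at 30 μg/kg and the Ptges3 slope became 0.0392. Hsp90ab1 at 30 μg/kg was also at 0.0292 with a filter at a mean of 50 counts, 0.0199 in run 1 alone and 0.0033 with the strand-specific counts. Leaving out 1 mouse gave -0.12 to 0.0337 for Hsp90ab1 at 30 μg/kg, slopes of -0.0022 to 0.0105 for Arnt and -0.0180 to 0.0132 for Hsp90aa1, and -0.27 to 0.14 for the change at 30 μg/kg in the log2 ratio of Hif1a to Ahr, which was 0.31 in run 2 alone. The ratio of Ahrr to Ahr rose by 7.42 in run 1 and 7.85 in run 2, groups too small to pass.

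Over all genes, calls rose from 3 to 19 without a filter and 11 with DESeq2 at 0.03 μg/kg, and from 15 to 33 and 24 at 0.1 μg/kg. With fewer mice they fell in runs 1 and 2 alone from 15 to 4 and 7 at 0.1 μg/kg, from 72 to 20 and 22 at 0.3 μg/kg, from 428 to 173 and 76 at 1 μg/kg and from 1038 to 428 and 402 at 3 μg/kg, in run 1 from 3347 to 1908 at 10 μg/kg, and without the third places of run 2 from 15 to 9 at 0.1 μg/kg. With fewer genes they fell from 6476 to 4272 at 30 μg/kg with the filter at 50 counts, and with no fold threshold they rose from 1038 to 1577 at 3 μg/kg. No paired analysis was possible because the labels carry no replicate numbers shared between groups, and the run and place of the titles, whose meaning is not given, entered only as a covariate. Depth limits Ahrr at 0.1 μg/kg and below.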
